A study of Homo sapiens with 6 samples.

Results

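The genes described here are 10 human imprinted genes, MEST, PEG3, PEG10, H19, IGF2, PLAGL1, DLK1, MEG3, NNAT and GRB10, among 18380 genes measured on 6 arrays. A probe set counted as a member's when the platform annotation named the gene, alone or with other symbols, and each of the 10 genes had 1 such probe set. MEST was chosen by its array values, which differed between the vectors, so those values are a description with no test, and the other 9 genes were chosen as imprinted genes to stand beside it. RNA came from MDA-MB231, an established mesenchymal, triple-negative human breast cancer cell line. In 3 cultures the cells carried GHSROS in the pTargeT mammalian expression vector, and in the other 3 pTargeT had no insert. The GHSROS transcript is noncoding and runs antisense to the ghrelin receptor gene. Both groups thus share the cell line, the transfection and the vector backbone, and the labels do not say whether the transfected cells were clones or pools. The submitters call the 3 samples of a group biological replicates, and if they were not grown separately the spread below is technical.

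An imprinted gene is expressed mainly from the allele inherited from 1 parent, because DNA methylation set in the egg or sperm at a control region marks the parental copies. MEST, PEG3, PEG10, IGF2, PLAGL1, DLK1 and NNAT are paternally expressed, H19 and MEG3 are maternally expressed noncoding RNAs, and GRB10 is maternally or paternally expressed depending on the tissue. Many of these genes act on fetal and placental growth, are silenced or reduced in most adult cells, and are often altered in tumours. Array levels add both alleles together and give no information on which allele was read.

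MEST and H19 each hold a microRNA, and these mature sequences are shown because they are second products of the transcripts measured here. MIR335 lies in an intron of MEST, and miR-335 is known as a suppressor of lung metastasis in derivatives of this cell line. MIR675 is processed from H19. No probe set was named for MIR335 or MIR675 by the annotation, so the microRNAs themselves were not analysed here. The RefSeq sequences on build GRCh38.p14 follow, 5′ to 3′, with the seed, bases 2 to 8, in capitals; the MIR335 products lie at chr7:130496126-130496148 and chr7:130496162-130496183 on the plus strand, the MIR675 products at chr11:1996800-1996822 and chr11:1996768-1996787 on the minus strand.
hsa-miR-335-5p: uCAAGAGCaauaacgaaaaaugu
hsa-miR-335-3p: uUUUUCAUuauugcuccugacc
hsa-miR-675-5p: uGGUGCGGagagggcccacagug
hsa-miR-675-3p: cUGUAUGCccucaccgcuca
The 4 seeds all differ from one another.

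MEST also has several transcription starts, and human transcripts from an upstream start are known to escape imprinting in some tissues. RefSeq lists 5 start windows of 300 bases for MEST, each running from 250 bases before to 50 after a start. Below are the first of them, at chr7:130485925-130486224, and the last, at chr7:130491835-130492134, both on the plus strand of GRCh38.p14, with every CpG, the methylated dinucleotide, in capitals.
MEST upstream start: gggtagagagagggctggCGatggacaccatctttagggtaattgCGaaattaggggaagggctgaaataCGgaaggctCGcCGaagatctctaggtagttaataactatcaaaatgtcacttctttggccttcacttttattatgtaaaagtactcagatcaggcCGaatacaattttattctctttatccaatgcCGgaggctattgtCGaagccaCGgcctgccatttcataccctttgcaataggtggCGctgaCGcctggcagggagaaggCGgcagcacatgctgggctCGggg
MEST downstream start: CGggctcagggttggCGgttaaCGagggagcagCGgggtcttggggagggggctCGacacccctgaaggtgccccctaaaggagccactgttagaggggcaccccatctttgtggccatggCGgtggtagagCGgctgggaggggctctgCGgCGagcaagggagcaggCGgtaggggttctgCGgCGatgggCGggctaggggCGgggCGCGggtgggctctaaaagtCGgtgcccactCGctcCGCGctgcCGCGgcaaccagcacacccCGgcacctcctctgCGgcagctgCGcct
The upstream window held 13 CpG and the downstream window 25, against a median of 14 over 35116 RefSeq start windows of the same length. The MEST windows between them held 22, 16 and 22 CpG in order of position. The first of these overlaps the upstream window, and the last, at chr7:130491808-130492107, overlaps most of the downstream window. The contrast between 13 and 25 is therefore that of the 2 windows printed. As many as 13 CpG were found in 51.7% of all windows, and as many as 25 in 32% of them. The motif TGCCGC, the sequence that the imprint-keeping zinc finger protein ZFP57 is known to recognise when methylated, was searched on both strands, overlapping matches included. It had 1 match in the upstream and 3 in the downstream window, and 1, 0 and 2 in the windows between them. A match in bases that 2 windows share is counted in both. Of all windows 16.7% held at least 1. The probe set for MEST gives 1 value for the gene, so the starts cannot be told apart here.

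The deposited log2 values, made by the authors with RMA, a summary of the many short probes of a gene, had array medians between 6.559 and 6.648. Brightness depends on the probes as well as on the RNA, so levels are compared between arrays and not between genes. Below about those medians differences between samples can be compressed. Empty-vector array 1 and GHSROS array 3 stood apart from the other 4 arrays, as earlier results on these data had shown. The mean log2 level of 20 mitosis genes was 10.23 on GHSROS array 3 and 10.22 on empty-vector array 1, and 11.04 to 11.25 on the others. The mean of 15 targets of ATF4, the transcription factor of amino acid stress, was 9.75 and 9.70 on those arrays and 8.64 to 9.16 on the others. The identity of the line was checked with VIM, the mesenchymal filament gene vimentin, at 13.07 in the GHSROS and 13.24 in the empty-vector arrays. The VIM groups did not overlap, at a difference of -0.17 on the log2 scale (SE 0.10). Groups lower with GHSROS without overlap were found for 2.44% of all genes. All 6 genes chosen to mark the line lay above the array medians on every array, and 1 was higher and 5 lower in the mean with GHSROS. Of 7 luminal epithelial markers, ESR1, PGR and CDH1 lay below the medians on every array, while KRT8 (12.09 in both groups), ERBB2, GATA3 and FOXA1 lay above them. Of 5 fibroblast markers COL3A1, DCN and LUM lay below, COL1A1 lay above and PDGFRB on both sides. Of 4 leukocyte markers PTPRC, CD3E and ITGAM lay below and CD68, at 12.24 with GHSROS and 12.48 with the empty vector, above, so levels against the medians do not by themselves show the kind of cell.

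MEST, which encodes a membrane protein with the fold of alpha/beta hydrolases, was lower with GHSROS, and this is the difference it was picked for. Probe set 8136248 on chromosome 7, paired with MEST alone, read log2 levels of 8.49, 8.96 and 8.80 on GHSROS arrays 1, 2 and 3, against 9.45, 9.26 and 9.64 on empty-vector arrays 1, 2 and 3. All 3 GHSROS arrays lay below all 3 empty-vector arrays, with GHSROS array 2 nearest to the empty-vector group. The means were 8.75 ± 0.24 with GHSROS and 9.45 ± 0.19 with the empty vector (SD, n = 3 each), which is 1.63-fold lower and a difference of -0.70 on the log2 scale (SE 0.15). In bulk RNA fewer cells expressing a gene and less RNA per cell cannot be told apart. Groups without overlap were found for 5.51% of the 18380 genes in either direction and 2.44% in the lower direction, and the choice of MEST used this contrast. Neither array that stood apart was extreme for MEST within its group. GHSROS array 3 lay between the other GHSROS arrays, and empty-vector array 1 between the other empty-vector arrays. Without both arrays that stood apart the log2 fold change was -0.73 (SE 0.19). Its sign could not turn, because MEST was picked for groups that do not overlap. The part of those arrays in the difference was not tested. MEST and its neighbour COPG2 overlap in RefSeq, and no source used here states which strand the probes read.

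**Figure D1:**
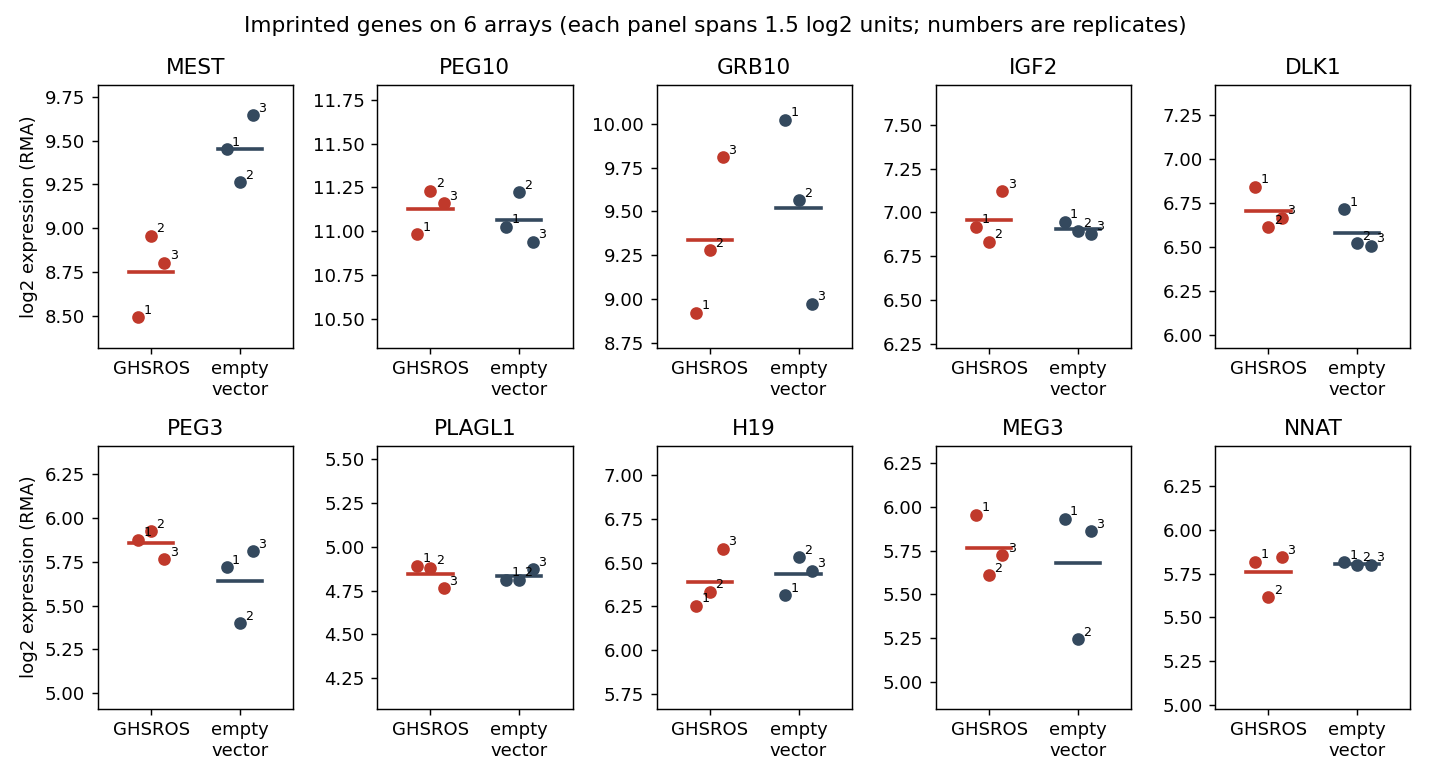
Log2 expression of the 10 imprinted genes on each array, GHSROS left and empty vector right, with the replicate number beside each point and the group mean as a bar; every panel spans the same log2 range. The groups are apart for MEST, at 8.49 to 8.96 with GHSROS and 9.26 to 9.64 with the empty vector, and overlap in the other 9 panels. MEST was picked for this difference, and 5.51% of all genes had groups apart.

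PEG10, GRB10, IGF2, DLK1, PEG3, PLAGL1, H19, MEG3 and NNAT had GHSROS values that overlapped the empty-vector values. Groups without overlap were found for only 5.51% of all genes, so overlap was the usual case for any gene. Of these 9 genes 6 were higher and 3 lower in the mean, beside 50.9% and 49.1% of all genes, and 0 passed limma's test, a linear model across all genes, at an adjusted p of 0.05. They had a median log2 fold change of 0.05, beside 0.002 over all genes. At that threshold 0% of the 18380 genes were called, 325 genes or 1.77% had an unadjusted p under 0.05, and among the 9 genes 0 did. The adjusted p of each of the 9 genes was 1 in limma.

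Of the growth factor and adaptor genes, GRB10 varied most between arrays and IGF2 least. IGF2 encodes a growth factor that signals through the IGF1 receptor, and its probe set 7945688 on chromosome 11 also names INS and INS-IGF2, so the signal may include insulin transcripts. Its log2 levels were 6.92, 6.83 and 7.12 with GHSROS, against 6.95, 6.90 and 6.88 with the empty vector. Apart from GHSROS array 3, the highest, the arrays lay within 6.83 to 6.95. On the log2 scale IGF2 differed by 0.05 (SE 0.10), and the 95% interval ran from -0.19 to 0.29. DLK1, a membrane protein with EGF-like repeats related to Notch ligands that holds back adipocyte differentiation, was read by probe set 7976783 on chromosome 14. Its levels were 6.84, 6.61 and 6.67 with GHSROS, against 6.71, 6.52 and 6.51 with the empty vector. Empty-vector array 1 lay above 2 of the GHSROS arrays, and the log2 fold change of 0.13 (SE 0.10) had an interval from -0.12 to 0.38.

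GRB10 encodes an adaptor that binds the insulin and IGF1 receptors and dampens their signal. Its probe set 8139656 on chromosome 7, paired with GRB10 alone, gave log2 levels of 8.92, 9.28 and 9.81 with GHSROS, against 10.02, 9.56 and 8.97 with the empty vector. The highest values of both groups were on the arrays that stood apart, GHSROS array 3 and empty-vector array 1, where ATF4 targets were high and mitosis genes low. Its range over 6 arrays was 1.10, larger than that of 95.9% of all genes and close to the 1.15 of MEST. The means were 9.34 ± 0.45 with GHSROS and 9.52 ± 0.53 with the empty vector (SD, n = 3 each), and the log2 fold change of -0.18 (SE 0.31) had an interval from -0.92 to 0.56. Without both arrays that stood apart it was -0.17 (SE 0.21), without empty-vector array 1 alone 0.07, and without GHSROS array 1 alone 0.02. Without GHSROS array 3 alone it was -0.42 (SE 0.30), and without empty-vector array 3 alone -0.46 (SE 0.28). Leaving out array 2 of the GHSROS or of the empty-vector group gave -0.155 and -0.162. The part of the ATF4 and mitosis genes in the level of GRB10 was not tested.

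**Figure D2:**
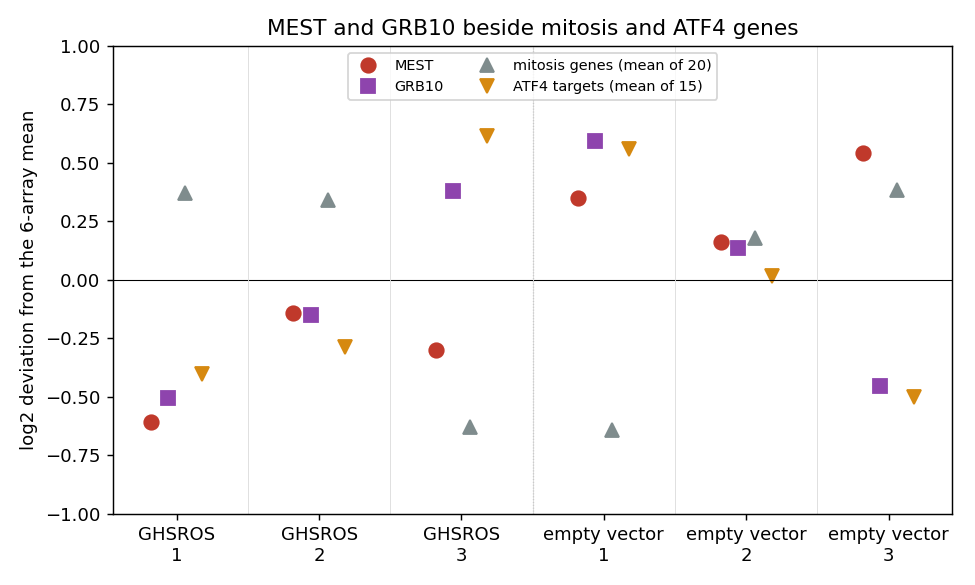
Deviation of MEST, GRB10 and the means of 20 mitosis genes and 15 ATF4 targets from their own mean over 6 arrays, in log2 units, for GHSROS arrays 1 to 3 on the left and empty-vector arrays 1 to 3 on the right. GRB10 lies highest on empty-vector array 1 (level 10.02) and GHSROS array 3 (9.81), as the ATF4 targets do, whereas MEST lies below its mean on all GHSROS arrays and above it on all empty-vector arrays.

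The DNA-binding and retrotransposon-derived genes overlapped between the groups, with log2 fold changes from 0.01 to 0.21. PEG10 derives from the gag and pol genes of a retrotransposon and is needed for the placenta in mice. Probe set 8134339 on chromosome 7 read it at 10.98, 11.23 and 11.16 with GHSROS, against 11.03, 11.22 and 10.94 with the empty vector. All 6 values were well above the array medians, and GHSROS array 2 and empty-vector array 2 were nearly equal. PEG10 differed by 0.06 (SE 0.11) in log2 fold change, with an interval from -0.21 to 0.33. SGCE, its paternally expressed neighbour, a sarcoglycan gene, differed by 0.05 (SE 0.15).

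PEG3, a zinc finger gene, was read by probe set 8039607 on chromosome 19, which also names ZIM2, a gene that shares exons with PEG3. Its log2 levels were 5.88, 5.93 and 5.76 with GHSROS, against 5.72, 5.40 and 5.81 with the empty vector. Empty-vector array 3 lay above GHSROS array 3, and empty-vector array 2 was the lowest of all. The log2 fold change of PEG3 was 0.21 (SE 0.13), the largest of the 9 genes in size, with an interval from -0.09 to 0.51, and it was 0.09 (SE 0.10) without empty-vector array 2. PLAGL1, a zinc finger transcription factor that restrains growth and that in mice acts on a network of imprinted genes, was read by probe set 8129985 on chromosome 6. It stood at 4.89, 4.88 and 4.76 with GHSROS and at 4.81, 4.81 and 4.87 with the empty vector. Its range of 0.13 was larger than that of only 2.76% of all genes, at a level below the array medians. The log2 fold change of 0.01 (SE 0.08) had an interval from -0.18 to 0.21.

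**Figure D3:**
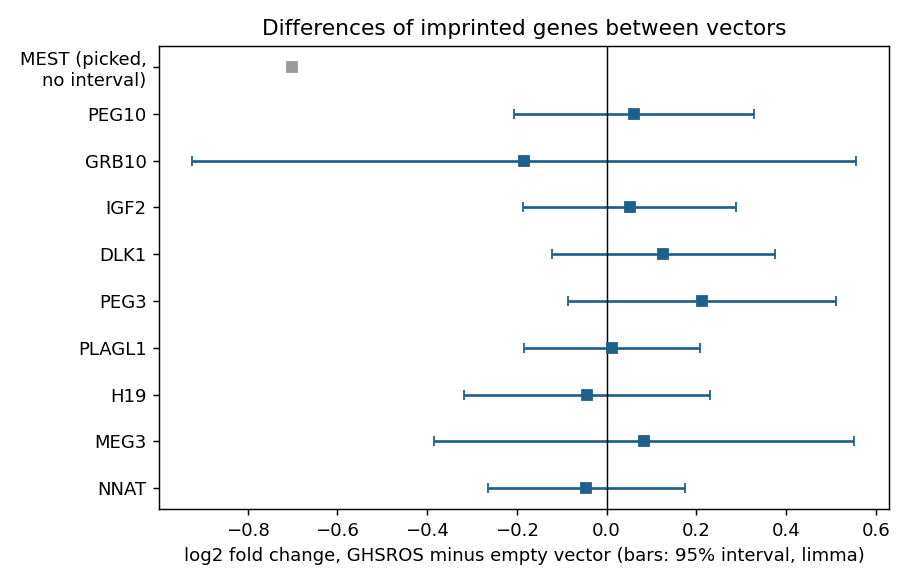
Log2 fold change, GHSROS minus empty vector, of the 10 imprinted genes, with 95% intervals from limma for the 9 genes other than MEST. All 9 intervals include 0, the widest being that of GRB10 from -0.92 to 0.56; MEST, at -0.70, was picked for this difference and carries no interval.

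Among the maternally expressed noncoding RNAs, H19 was read by probe set 7945680 on chromosome 11, which the annotation pairs with H19 and with RPS12, a ribosomal protein gene. The value is therefore not that of H19 alone. It was 6.26, 6.33 and 6.58 with GHSROS and 6.31, 6.53 and 6.45 with the empty vector. The highest value was on GHSROS array 3 and the lowest on GHSROS array 1, so the GHSROS values spanned the other group. For this probe set the log2 fold change was -0.04 (SE 0.12), with an interval from -0.32 to 0.23. MEG3, a noncoding RNA from the locus that also holds DLK1, was read by probe set 7976795 on chromosome 14 at 5.95, 5.61 and 5.72 with GHSROS, against 5.93, 5.24 and 5.86 with the empty vector. Empty-vector array 2 was the lowest array for MEG3, as it was for PEG3 and for RTL1, a retrotransposon-derived gene of the same locus that stood there at 5.04 against 5.20 to 5.62 on the other arrays. The log2 fold change of MEG3 was 0.08 (SE 0.20), and it was -0.13 (SE 0.13) without empty-vector array 2. NNAT, which encodes neuronatin, a small membrane proteolipid known from neurons, was read by probe set 8062395 on chromosome 20. It stood at 5.82, 5.62 and 5.84 with GHSROS and at 5.81, 5.80 and 5.80 with the empty vector. Apart from GHSROS array 2 the NNAT values were nearly equal, and the log2 fold change was -0.05 (SE 0.09), with an interval from -0.27 to 0.17. PEG3, PLAGL1, MEG3 and NNAT lay below the array medians on every array, so whether these genes are expressed in the cells cannot be told from the values. The H19 probe set lay below the lowest array median, 6.559, on every array but GHSROS array 3 (6.58). DLK1 lay below it on empty-vector arrays 2 (6.52) and 3 (6.51) and near it on others. The same limit therefore bears on H19 and DLK1.

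**Figure D4:**
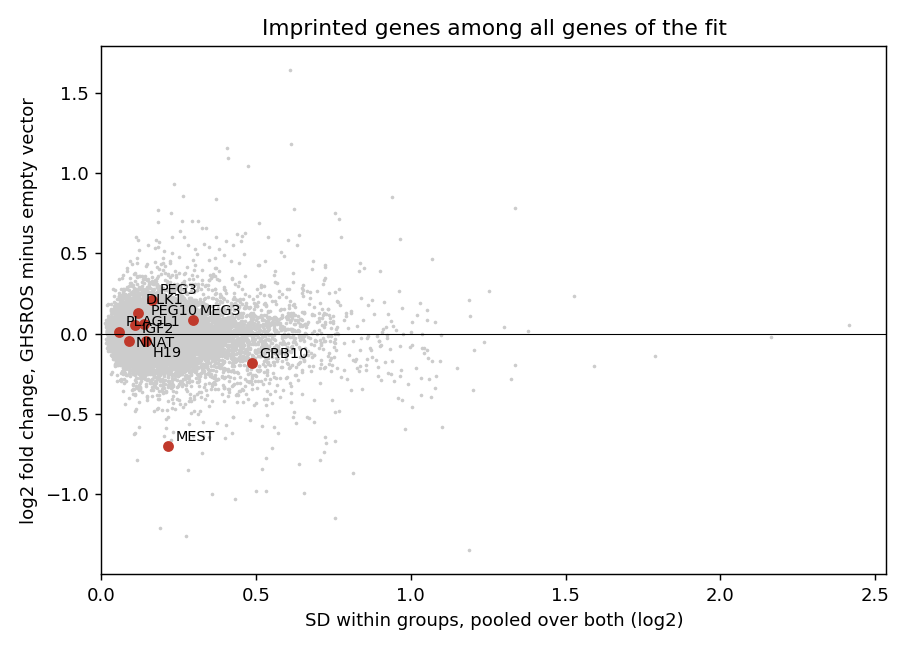
Log2 fold change, GHSROS minus empty vector, against the pooled SD within groups for all 18380 genes (grey) and the 10 imprinted genes (red, named). MEST lies at -0.70 with an SD of 0.22 and GRB10 at -0.18 with an SD of 0.49, and the other 8 lie between -0.05 and 0.21.

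The genes whose levels over the 6 arrays were most like MEST were RRAS2, NDUFA2, JADE2, ZNF776 and TBC1D2, by Pearson correlation among 9189 genes at or above the median of mean level. The correlations ran from 0.983 for RRAS2 to 0.973 for TBC1D2, across 6 arrays that share the vector grouping for which MEST was picked, and are given as a description. TBC1D2, a gene of a GTPase-activating protein of the Rab family, stood at 10.01, 10.17 and 10.17 with GHSROS, against 10.57, 10.36 and 10.56 with the empty vector. ZNF776, a zinc finger gene, differed by -0.21 (SE 0.09), whereas RRAS2, a GTPase gene related to RAS, NDUFA2, of mitochondrial complex I, and JADE2 differed by -0.09 each (SE 0.08 each). Of the other imprinted genes described here, DLK1 had the correlation with MEST furthest from 0, at -0.71, and GRB10 was at 0.21.

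Genes beside MEST on chromosome 7 had log2 fold changes between -0.15 and 0.03, where MEST had -0.70; the difference between these values was not tested. In RefSeq order CPA5, CPA1 and CEP41 come before MEST, and COPG2, which overlaps it, TSGA13 and KLF14 come after it. 5 of the 10 listed neighbours were read by a probe set paired with them alone, of which 2 were higher, 3 lower and 0 passed in limma, with a median log2 fold change of -0.02. CEP41, a centrosomal protein gene, had the largest difference, with levels of 8.20, 8.29 and 8.03 with GHSROS and 8.39, 8.10 and 8.48 with the empty vector. These groups overlapped, and the log2 fold change of CEP41 was -0.15 (SE 0.13). CPA4, a carboxypeptidase gene known to be maternally expressed, differed by -0.11 (SE 0.23), and its levels of 7.39 on GHSROS array 3 and 7.30 on empty-vector array 1 were its highest. KLF14, an intronless and maternally expressed transcription factor gene, differed by -0.02 (SE 0.09), CPA1 by 0.02 (SE 0.09) and CPA5 by 0.03 (SE 0.09). COPG2 and TSGA13 were named only together with other genes and were not analysed here.

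The messenger RNAs reported as targets of miR-335 in derivatives of this line were looked at as readouts linked to the MEST locus. All 6, SOX4, TNC, COL1A1, MERTK, PLCB1 and PTPRN2, were measured, of which 3 were higher and 3 lower, with a median log2 fold change of 0.02. Without both arrays that stood apart 2 were higher and 4 lower, with a median of -0.03. In limma 0 passed, and 1, PLCB1, had an unadjusted p under 0.05, beside 1.77% of all genes. PLCB1, a phospholipase C gene, stood at 5.24, 4.60 and 5.48 with GHSROS, against 4.29, 4.45 and 4.61 with the empty vector. GHSROS array 2 and empty-vector array 3 were nearly equal, so the groups overlapped, at a level below the array medians. PLCB1 had a log2 fold change of 0.66 (SE 0.22, unadjusted p = 0.0221 and adjusted p = 1 in limma).

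TNC, the matrix glycoprotein gene tenascin C, and MERTK, a receptor tyrosine kinase gene, varied with the arrays that stood apart. TNC was at 10.42, 10.94 and 8.92 with GHSROS and at 9.08, 10.86 and 10.55 with the empty vector, lowest on GHSROS array 3 and empty-vector array 1. MERTK was highest on those arrays, at 9.59, 9.89 and 10.23 with GHSROS and 10.49, 10.03 and 9.80 with the empty vector. The log2 fold changes were -0.07 (SE 0.63) for TNC and -0.20 (SE 0.22) for MERTK. SOX4, a transcription factor gene, differed by 0.06 (SE 0.22), COL1A1, a collagen gene, by 0.08 (SE 0.08), and PTPRN2 by -0.02 (SE 0.10).

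Other imprinted genes were split about evenly between higher and lower over all 6 arrays, and less evenly without both arrays that stood apart. Of 26 further paternally expressed genes 13 were measured alone by a probe set, with 7 higher, 6 lower and a median log2 fold change of 0.05. In limma 0 passed the adjusted threshold, 0 had an unadjusted p under 0.05, and 0 had groups without overlap. The shares over all genes were 0%, 1.77% and 5.51%, so 0 of 13 genes is near them. Without both arrays that stood apart 9 were higher and 4 lower, with a median of 0.02. ZDBF2, a zinc finger gene, differed by 0.21 (SE 0.17), MAGEL2, of the locus deleted in Prader-Willi syndrome, by 0.18 (SE 0.12), and L3MBTL1, a chromatin-binding protein gene, by -0.17 (SE 0.17). SNRPN and SNURF were named only with other symbols and were not analysed here.

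Of 17 maternally expressed genes 14 were measured, with 7 higher, 7 lower and a median of 0.003. In limma 0 passed and 1, NLRP2, had an unadjusted p under 0.05, beside 1.77% of all genes. Without both arrays that stood apart 5 were higher and 9 lower, with a median of -0.07. NLRP2, a pyrin domain gene of the NLR family that is maternally expressed in humans, was the 1 gene of this list with groups apart. Over all genes 5.51% had groups apart. Its levels were 4.94, 5.01 and 4.78 with GHSROS, against 5.81, 5.69 and 5.59 with the empty vector. All lay below the array medians, and the log2 fold change of -0.79 (SE 0.10) did not pass (adjusted p = 1 in limma). NLRP2 was known from earlier results on these data when the list was made, so it is no independent support. PPP1R9A, a neuronal scaffold gene beside PEG10, stood at 6.18, 6.88 and 6.66 with GHSROS and 6.30, 6.46 and 5.73 with the empty vector, a log2 fold change of 0.41 (SE 0.24). TFPI2, an inhibitor of serine proteases from the same region, stood at 10.71, 10.38 and 11.26 with GHSROS and 10.75, 10.21 and 10.21 with the empty vector, or 0.39 (SE 0.25). Both overlapped between the groups. The growth-restraining CDKN1C and PHLDA2, neighbours on chromosome 11, differed by 0.04 (SE 0.08) and -0.07 (SE 0.14).

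**Figure D5:**
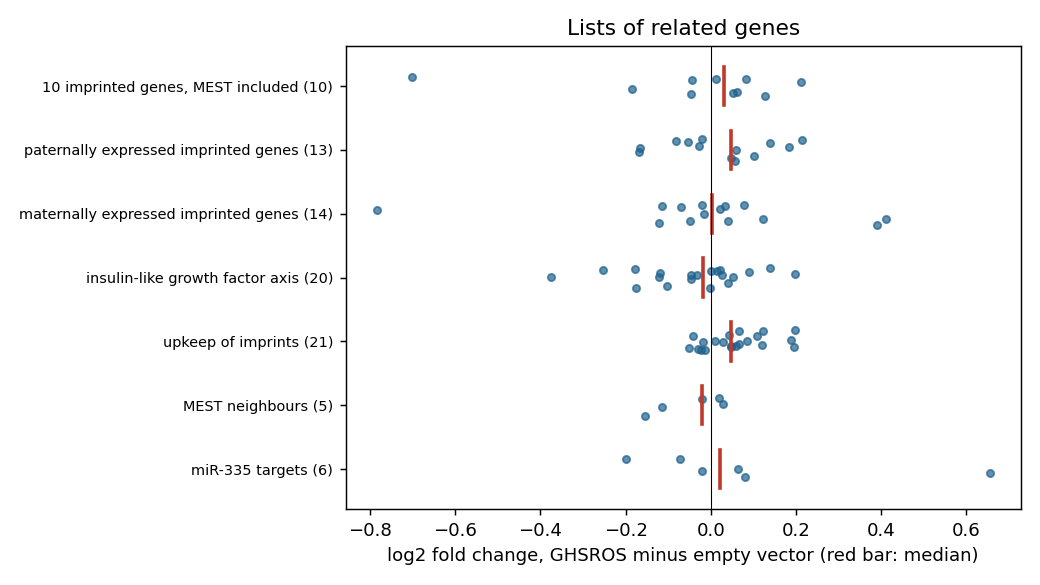
Log2 fold change, GHSROS minus empty vector, of each measured gene in the 10 imprinted genes and in 6 lists of related genes, with the list median as a red bar and the number measured in brackets. The medians run from -0.02 to 0.05, and the genes furthest from 0 are NLRP2 at -0.79, MEST at -0.70 and PLCB1 at 0.66.

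The insulin-like growth factor axis, through which IGF2 and GRB10 act, had 20 of 21 genes measured, with 9 higher, 11 lower, a median log2 fold change of -0.02 and 0 past the test in limma. Groups without overlap were found for 2 of the 20, 1 higher and 1 lower, beside 5.51% of all genes. Without both arrays that stood apart 7 were higher and 13 lower, with a median of -0.08. Of the receptors, IGF1R differed by 0.0007 (SE 0.17), IGF2R, which clears IGF2 from the cell surface, by 0.03 (SE 0.19), and INSR by 0.14 (SE 0.16). PAPPA, a protease that frees growth factors from their binding proteins, stood at 6.21, 6.04 and 6.53 with GHSROS and 6.93, 6.69 and 6.30 with the empty vector. GHSROS array 3 overlapped the other group, and the log2 fold change of PAPPA was -0.38 (SE 0.19). IGF2BP3, an RNA-binding protein gene named for its binding of IGF2 messages, differed by -0.25 (SE 0.13), and IGFBP2, a binding protein gene, by 0.20 (SE 0.12).

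Genes that set or keep imprints had 21 of 23 measured, with 15 higher, 6 lower and a median log2 fold change of 0.05. In limma 0 passed, and 0 had an unadjusted p under 0.05, beside 0% and 1.77% of all genes. DNMT3A, a DNA methyltransferase that sets imprints in the germ line, differed by 0.20 (SE 0.10), TET1, which oxidises methylated cytosine, by 0.20 (SE 0.22), and DPPA3, known from the egg, by 0.19 (SE 0.10). DNMT1, which copies methylation after replication, differed by -0.05 (SE 0.20). UHRF1, its partner, stood at 11.06, 10.95 and 10.11 with GHSROS and 9.99, 10.94 and 11.25 with the empty vector. It was low on both arrays where mitosis genes were low, and its log2 fold change was -0.02 (SE 0.38). ZFP57 and its partner TRIM28 differed by 0.01 (SE 0.09) and 0.04 (SE 0.11).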

How the data were processed

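RNA from 6 cultures was hybridised to 1-colour Affymetrix Human Gene arrays. The authors deposited log2 expression values per probe set, made with RMA per the submitters' processing notes; no source used here gives its version, background and normalization steps or any filter. Array values have no depth, and 3 arrays per group limit the precision. Groups and replicate numbers came from sample titles, and 0 columns were left out. The platform annotation paired 19310 of 28869 probe sets with 1 symbol and 1752 with several, and 7807 were unlisted. Entrez identifiers of 19279 were found in RefSeq (GRCh38.p14), which changed 0 symbols. The brightest probe set per gene was kept, without filter, for 18380 genes. GHSROS minus empty vector was fitted with limma 3.58.1 in R 4.3.3 (functions lmFit and eBayes, 1 term for the group, two-sided, Benjamini-Hochberg over all genes, threshold 0.05), and the fit was tested on simulated data. Members and lists were chosen with earlier results of these data known. Text names all members, up to 3 genes per list by absolute fold change, all MEST neighbours and miR-335 targets, and 5 genes most like MEST; IGF1R, IGF2R, INSR, DNMT1, UHRF1, ZFP57, TRIM28, SGCE, CDKN1C and PHLDA2 were named for their role after values were seen. Alternatives were arrays left out, the replicate block, array weights, an intensity trend with robust prior, the mean of probe sets, level filters (median, 25th percentile), and quantile normalization or median centring.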

Additional observations from a re-analysis of the deposited data

How the results depend on the processing

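The log2 fold change of MEST ran from -0.81 to -0.57 over 15 alternatives. Its sign says nothing about stability, since MEST was picked for groups that do not overlap and leaving out arrays cannot turn it. In limma 0 genes passed an adjusted p of 0.05 under every alternative run. Genes at an unadjusted p under 0.05 in limma numbered 325, or 1.77% of 18380. They numbered 76 with the filter at the median level, which left 9189 genes besides MEST, and 187 with that at the 25th percentile. Both filters took out genes of low level and left fewer genes to test, and the part of each in the lower counts was not tested. With array weights the number was 878 (the cause was not tested). Leaving out single arrays gave 191, without GHSROS array 1, to 480. With array weights PEG10 was -0.048, and MEG3 (0.328), GRB10 (-0.395), H19 (-0.152), PEG3 (0.351) and PLAGL1 (0.048) lay further from 0 by over 1.5 times, IGF2 (0.013) nearer to it, and 0 passed (the cause was not tested); without both arrays that stood apart IGF2 was -0.011. Leaving out single arrays or both of these turned the direction of PEG10 (-0.001 to 0.141), H19 (-0.198 to 0.024), IGF2 (-0.031 to 0.114), PLAGL1 (-0.011 to 0.054), MEG3 (-0.134 to 0.229), NNAT (-0.088 to 0.026) and GRB10 (-0.457 to 0.068), none of which passed; PEG3 (0.091 to 0.296) and DLK1 (0.059 to 0.214) kept theirs. With the replicate number as a block 223 genes had an unadjusted p under 0.05, MEST was -0.70 (SE 0.16) and no call changed. The deviations of same-numbered arrays correlated at -0.71, 0.50 and -0.67, so the numbers were not taken as pairs. List counts without both arrays that stood apart, added after seeing the data, were 1 of 5 higher for MEST neighbours, 9 of 13 and 5 of 14 for paternally and maternally expressed genes, 14 of 21 for genes that keep imprints, 2 of 6 for miR-335 targets, 7 of 20 for the insulin-like growth factor axis, and 5 of 10 for the genes described here. Other probe sets of a member were not tried, because each had 1. Genes below the array medians are limited by background.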

Other observations

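Notch receptors, ligands and targets, the pathway to which DLK1 is related, had 13 of 13 genes measured, with 6 higher, 7 lower, a median log2 fold change of -0.06 and 0 past the test in limma. HEYL, a Notch target, stood at 6.80, 6.81 and 6.88 with GHSROS, against 6.67, 6.44 and 6.64 with the empty vector. The HEYL groups were apart, as were those of 5.51% of all genes. Its log2 fold change of 0.25 (SE 0.09) did not pass (unadjusted p = 0.0337 and adjusted p = 1 in limma). HEYL was the 1 gene of the 13 with an unadjusted p under 0.05 in limma, beside 1.77% of all genes. The other Notch target with a large difference, HES1, was at 0.21 (SE 0.19), highest on GHSROS array 3 and empty-vector array 1, and the receptor gene NOTCH3 was at -0.19 (SE 0.11). Without both arrays that stood apart 3 of the 13 genes were higher and 10 lower.

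Relatives of the proteins described here, such as the PLAG zinc finger genes and the retrotransposon-derived RTL genes, had 10 of 11 measured, with 5 higher, 5 lower and a median of 0.001. RTL9 differed by 0.14 (SE 0.11), RTL1 by -0.08 (SE 0.16) and RTL3 by -0.08 (SE 0.15), and 0 of the 10 passed in limma.

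FOXA1, a luminal transcription factor gene among the markers of other breast cell types, was at 7.15, 6.99 and 7.08 with GHSROS and 6.68, 6.75 and 6.76 with the empty vector. The groups were apart at a log2 fold change of 0.35 (SE 0.08), which did not pass (unadjusted p = 0.00478 and adjusted p = 1 in limma). FOXA1 was the 1 luminal marker of 7 with an unadjusted p under 0.05 in limma, beside 1.77% of all genes. The mean of the 7 luminal markers was 7.19 ± 0.043 with GHSROS and 7.15 ± 0.044 with the empty vector (SD, n = 3 each). KDR, a receptor gene of endothelium, was highest on GHSROS array 3 at 9.10 and empty-vector array 1 at 8.81, the arrays on which GRB10 was highest, and between 7.20 and 7.77 on the others. Of the measured markers of fibroblasts (5), leukocytes (4), endothelium (4) and adipocytes (4), 0 passed in limma and 0 had an unadjusted p under 0.05. The shares over all genes were 0% and 1.77%. Groups were apart for 1 fibroblast marker, DCN, which was lower with GHSROS, and 1 adipocyte marker, ADIPOQ, which was higher. Over all genes 5.51% had groups apart.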
